A study of Mus musculus with 10 samples.

Results

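The dystrophin-associated complex and the membrane repair protein dysferlin were examined through 8 genes, Dmd, Utrn, Dag1, Sgca, Sgcb, Sgcd, Dtna and Dysf. They were picked by gene name, with no threshold on their values, but with earlier results of these data known. They are 8 of the 23337 genes in the table of left atrial RNA sequencing. All 8 had reads and passed the filter on low counts. The 6 knockout libraries came from Tbx5 null mice, in which Cre recombinase, active after tamoxifen and driven from the R26 locus that is used in all tissues, cut out exon 3 of the cardiac transcription factor gene Tbx5. Tamoxifen was injected into the abdomen on 3 days at 0.167 mg a day, and the atria were collected 1 week later. The 4 control libraries came from mice labelled Tbx5 +/+, and whether these carried Cre or received tamoxifen is not stated in the labels. All animals had a mixed C57B6 and 129 background, and their age reads 8 to 10 weeks in one label and 6 to 8 weeks in another. The labels give 3 females and 3 males among the knockouts and 2 of each among the controls. They number the libraries but do not say that each is a separate animal, so p-values measure the spread between libraries. Because Cre was not limited to one cell type, any cell of the atrium could have lost Tbx5.

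Dystrophin is a long cytoplasmic protein of muscle that ties the actin cytoskeleton to a group of membrane proteins. At the centre of that group is dystroglycan, whose outer part binds laminin and other matrix proteins through its sugar chains, and beside it stand the sarcoglycans, single-pass membrane proteins that assemble as a unit. Dystrobrevin and the syntrophins bind dystrophin on the inner side. Dysferlin is a membrane protein with calcium-binding domains that takes part in resealing the torn muscle membrane together with annexins, caveolin 3 and other partners. Mutations in human DMD, in the sarcoglycan genes and in DYSF cause muscular dystrophies, and loss of dystrophin or of a sarcoglycan can also cause cardiomyopathy.

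Knockout libraries held 5789632 to 7355782 assigned reads and control libraries 5701670 to 7697556. Levels below are the authors' normalized counts, which are read counts divided by one size factor per library. Reads of Tbx5 itself went against the knockout label: 1952 ± 336 normalized counts in knockout libraries (SD, n = 6) and 939 ± 125 in control libraries (SD, n = 4), a log2 fold change of 1.03 ± 0.14 (SE; edgeR quasi-likelihood test, Benjamini-Hochberg adjusted p = 4.78e-05). A count over the whole gene does not measure the loss of exon 3, and the groups are named by their labels throughout. The sex labels of the controls also disagreed with the data. Controls labelled male, M1 and M2, had 5767 and 6201 reads of Xist, which is transcribed from an inactive X chromosome, and 0 reads of 4 Y-linked genes. Controls labelled female, F1 and F2, had 119 and 9 reads of Xist and 2383 and 2106 Y-linked reads. Knockout libraries matched their labels, with 4443 to 4802 Xist reads and at most 1 Y-linked read in the females and 1265 to 1854 Y-linked reads in the males. Control F1 and knockout M3 had 119 and 153 reads of Xist beside their Y-linked reads, against 4 to 9 in knockouts M1 and M2 and control F2, and the fold changes were computed again without both. Without them, the 5 of the 8 genes that had passed the test still passed it in the same directions.

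The study compared Tbx5 knockout with control left atrium to find genes that change after removal of Tbx5. In knockout libraries 4 of the 8 genes were lower (Dmd, Utrn, Sgcd and Sgcb) and 1 was higher (Dysf), while Dag1, Sgca and Dtna did not pass an adjusted p of 0.05. Over all 13191 genes tested, 42.6% passed, 20.8% higher and 21.8% lower in knockout libraries, so a call as such was common in this comparison. The 8 genes had a median log2 fold change of -0.25, against -0.00092 over all tested genes. In 5 of the 8 genes no knockout library overlapped a control library, where 31.3% of all tested genes had no overlap (16.3% with knockouts above and 15.0% with knockouts below).

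**Figure D1:**
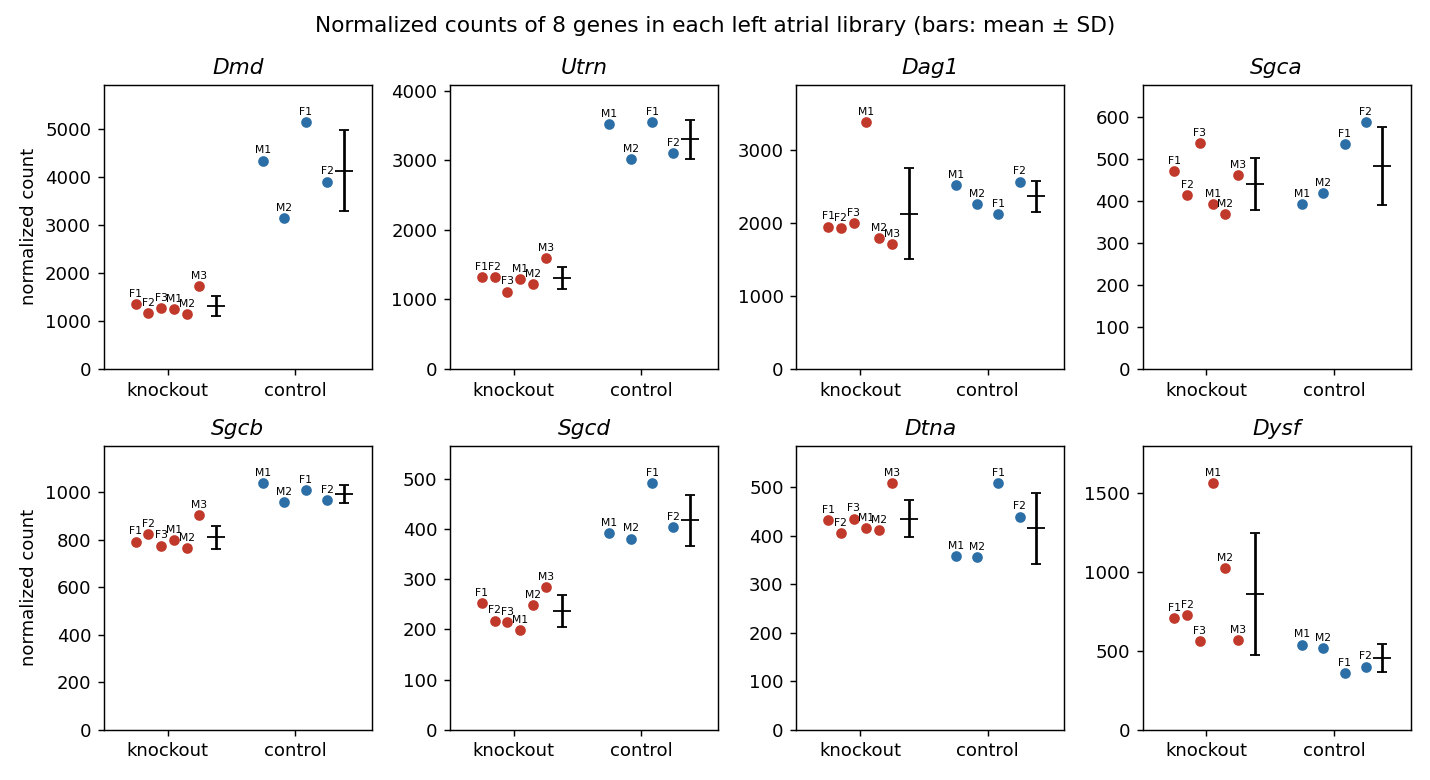
Normalized count (y axis, from 0) of each of the 8 genes in every left atrial library, with knockout libraries in red at the left and control libraries in blue at the right of each panel; bars are the mean ± SD of 6 and 4 libraries. Dmd, Utrn, Sgcb and Sgcd lay lower in all knockout libraries than in any control, Dysf lay higher, and the groups overlapped for Dag1, Sgca and Dtna.

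Dmd encodes dystrophin and lies on the plus strand of chromosome X (GRCm38, chrX:82948870-85206141). Its level was 1132 normalized counts in the lowest, 1253 in the median and 1721 in the highest knockout library, against 4331, 3135, 5137 and 3897 in controls M1, M2, F1 and F2. Every knockout library was below every control, and knockout M3 came nearest to them. The means were 1311 ± 216 in knockout libraries (SD, n = 6) and 4125 ± 836 in control libraries (SD, n = 4). The log2 fold change was -1.68 ± 0.15 (SE; edgeR, adjusted p = 2.09e-06), 3.20-fold lower. Only 1.34% of tested genes had a log2 fold change as low or lower. Dmd is the longest of the 8 in genomic span, 2257272 bp, with a GC content of 41.3% over its exons. With offsets for exon length and GC content fitted to each library, its log2 fold change was -1.01 (adjusted p = 7.64e-06), so the size of the fall depended on that choice while its call did not.

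The sequence before the start of the longest annotated Dmd transcript is shown because Dmd had the largest fall of the 8, beside that of Dysf, the only one that rose. Both are the 250 bases before a RefSeq start site (GRCm38.p6, plus strand), chrX:82948620-82948869 for Dmd and chr6:84019136-84019385 for Dysf, and capitals mark an E-box (CANNTG) or a CArG box, the binding motif of serum response factor, on either strand.
Dmd: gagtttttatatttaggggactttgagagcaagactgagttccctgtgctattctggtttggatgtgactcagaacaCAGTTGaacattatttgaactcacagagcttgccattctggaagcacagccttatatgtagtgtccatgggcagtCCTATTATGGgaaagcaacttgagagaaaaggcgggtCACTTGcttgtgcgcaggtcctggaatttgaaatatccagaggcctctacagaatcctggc
Dysf: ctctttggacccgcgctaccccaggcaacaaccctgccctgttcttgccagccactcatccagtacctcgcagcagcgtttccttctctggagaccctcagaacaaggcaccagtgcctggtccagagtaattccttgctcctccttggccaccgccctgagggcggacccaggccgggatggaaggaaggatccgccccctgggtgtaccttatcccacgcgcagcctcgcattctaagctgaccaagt
The CArG box in the Dmd sequence, CCTATTATGG, begins 98 bases before the start, and 1.63% of 32817 RefSeq promoter windows of 300 bases (250 before and 50 after a start) held one. The Dmd sequence also holds 2 E-boxes. Over the full 300 bases the Dmd window holds 3 and the window of the Dysf start shown holds 1, which lies after the start. Of all those windows 72.3% held an E-box. A second RefSeq window of Dmd, at a later start, held neither motif. The motifs were chosen after the sequences were seen, so these shares do not measure how likely such a match was by chance. The core of the T-box motif, AGGTGT or its reverse complement ACACCT, was in 0 of the 10 windows available for 7 of the genes, against 13.7% of all windows. RefSeq windows for Dtna were not used here, and no motif in these letters says whether a factor binds. The Dysf start shown is shared within 50 bases by 6 GENCODE transcripts and lies inside the gene, whose first annotated start is further upstream. Counts per gene cannot tell which start was used.

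Utrn encodes utrophin, the autosomal homologue of dystrophin (chr10:12382188-12869365, minus strand). It fell along with Dmd. Knockout libraries ran from 1113 to 1589 normalized counts with a median of 1302, against 3519, 3022, 3551 and 3105 in controls M1, M2, F1 and F2. The means, 1308 ± 158 in knockout libraries (SD, n = 6) and 3299 ± 275 in control libraries (SD, n = 4), differed by a log2 fold change of -1.36 ± 0.10 (SE; edgeR, adjusted p = 7.03e-07), 2.56-fold lower. No library of one group reached the other. Knockout M3 was again the highest of its group, as it was for Dmd.

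Whether both fell by the same amount was asked with their ratio. The ratio of Utrn to Dmd counts, which does not depend on how libraries are scaled, was 0.880 to 1.142 in knockout libraries (mean 1.007 ± 0.0987, SD, n = 6) and 0.691 to 0.964 in control libraries (mean 0.816 ± 0.112, SD, n = 4). The ranges overlapped, and the mean log2 ratio was 0.31 higher in knockout libraries (exact two-sided permutation test with 210 arrangements, p = 0.0238; the smallest p possible is 0.00476). The result rested in part on control F1, which had the highest Dmd count: without it the difference was 0.23 (exact p = 0.0714). With the length and GC offsets the log2 fold changes of Dmd and Utrn were nearly equal, -1.012 (adjusted p = 7.64e-06) and -1.007 (adjusted p = 4.24e-06), so that a difference between their falls depended on that choice. Per kb of the longest annotated transcript, the level of Utrn was 106 ± 12.8 in knockout libraries and 266 ± 22.2 in control libraries (SD), and that of Dmd was 87.9 ± 14.5 in knockout libraries and 277 ± 56.1 in control libraries (SD).

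Dag1 encodes dystroglycan, the precursor that is cut into the matrix-binding and the membrane-spanning subunit (chr9:108204634-108263958, minus strand). Its level was 1715 in the lowest, 1944 in the median and 3388 in the highest knockout library, against 2525, 2266, 2120 and 2571 in controls M1, M2, F1 and F2. Of the knockout libraries 5 lay below all controls and 1, knockout M1, lay above all of them. The means were 2132 ± 625 in knockout libraries (SD, n = 6) and 2370 ± 214 in control libraries (SD, n = 4), a log2 fold change of -0.18 ± 0.17 (SE; edgeR, adjusted p = 0.416). Without knockout M1 the log2 fold change was -0.34 (adjusted p = 0.00700), so 1 library decided whether Dag1 passed. The 2 genes whose profile over the 10 libraries was most like that of Dag1 were Nup214 and Tom1l2, and both also had their highest level in knockout M1, 396 and 1459 normalized counts.

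The 3 sarcoglycans differed among themselves. Sgcd, delta-sarcoglycan (chr11:46896253-47988969, minus strand), ran from 198 to 285 normalized counts with a median of 233 in knockout libraries, against 393, 381, 493 and 405 in controls M1, M2, F1 and F2. The groups did not overlap, and the means were 236 ± 31.6 in knockout libraries (SD, n = 6) and 418 ± 50.9 in control libraries (SD, n = 4). The log2 fold change was -0.85 ± 0.12 (SE; edgeR, adjusted p = 6.86e-05), 1.80-fold lower.

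Sgcb, beta-sarcoglycan (chr5:73632749-73647790, minus strand), fell by less and varied least from library to library. Knockout libraries ran from 766 to 903 normalized counts with a median of 796, against 1041, 959, 1010 and 966.5 in controls M1, M2, F1 and F2, and the groups did not overlap. With 810 ± 49.8 in knockout libraries (SD, n = 6) and 994 ± 38.2 in control libraries (SD, n = 4), the log2 fold change was -0.32 ± 0.08 (SE; edgeR, adjusted p = 0.00484). It did not pass when libraries were scaled by their total reads alone (-0.18, adjusted p = 0.0614), a scaling under which the median over all tested genes was 0.14 on the log2 scale. The direction stayed the same.

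Sgca, alpha-sarcoglycan, which is found mainly in striated muscle (chr11:94962791-94976327, minus strand), ran from 369 to 539 normalized counts with a median of 438 in knockout libraries, against 393, 419, 537 and 589 in controls M1, M2, F1 and F2. The groups overlapped over most of their range. The means were 441 ± 61.7 in knockout libraries (SD, n = 6) and 484 ± 93.7 in control libraries (SD, n = 4), and the log2 fold change of -0.16 ± 0.14 did not pass (SE; edgeR, adjusted p = 0.380). With the length and GC offsets it was -0.35 (adjusted p = 0.0433). The 2 controls without Y-linked reads, M1 and M2, were the lower pair.

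Dtna, alpha-dystrobrevin, which binds dystrophin and syntrophins (chr18:23415135-23659715, plus strand), ran from 406 to 509 normalized counts with a median of 424 in knockout libraries, against 358, 356, 509 and 439 in controls M1, M2, F1 and F2. The groups overlapped, with knockout M3 and control F1 level at the top. Means of 435 ± 38.3 in knockout libraries (SD, n = 6) and 416 ± 73.1 in control libraries (SD, n = 4) gave a log2 fold change of 0.04 ± 0.12 (SE; edgeR, adjusted p = 0.803). With the length and GC offsets the log2 fold change was 0.53 (adjusted p = 0.000712), so Dtna passed or not according to that choice. The annotated antisense gene Gm47898 overlaps exons of Dtna, and the strand setting of the counting is not given in the sources used here, so reads of the pair cannot be told apart.

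Dysf, dysferlin (chr6:84008590-84211060, plus strand), was the only one of the 8 that rose. Knockout libraries had 562 normalized counts at the lowest, 715 at the median and 1562 at the highest, against 538, 517, 357 and 399 in controls M1, M2, F1 and F2. All 6 knockouts lay above all controls, but the lowest, F3 and M3, were close to control M1, while M1 and M2 had 1562 and 1022. The means were 857 ± 384 in knockout libraries (SD, n = 6) and 453 ± 88.5 in control libraries (SD, n = 4). The log2 fold change was 0.89 ± 0.26 (SE; edgeR, adjusted p = 0.0129), 1.86-fold higher, and it was 0.65 (adjusted p = 0.00815) without knockout M1. The antisense genes Gm15475 and Gm33024 overlap exons of Dysf and have no row in the table, so reads from them could be counted in Dysf.

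**Figure D2:**
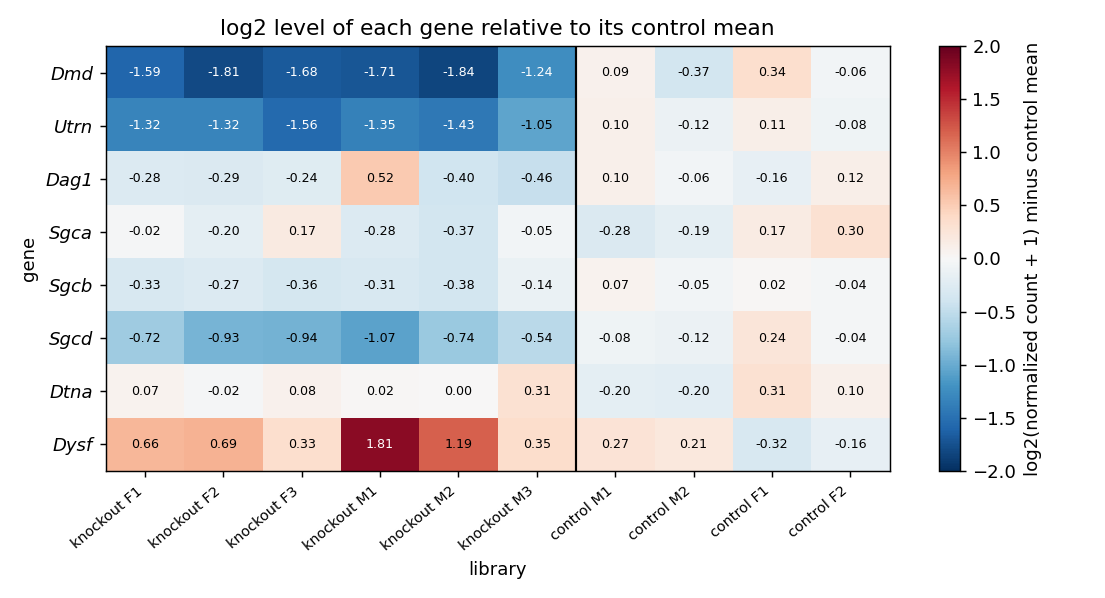
Level of each of the 8 genes (rows) in each library (columns, knockouts left of the line and controls right) as log2(normalized count + 1) minus the mean of the control libraries; red is above and blue below that mean. Dmd and Utrn were below it in all 6 knockouts, while Dysf was above it in all 6 and highest in knockout M1, the library that also stood apart for Dag1.

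Set side by side per kb of the longest transcript, the order of levels differed between the groups. In knockout libraries Dag1 (377 ± 110) was followed by Sgca (256 ± 35.8), Sgcb (214 ± 13.2), Dysf (126 ± 56.4), Utrn, Dmd, Dtna (69.1 ± 6.08) and Sgcd (53.0 ± 7.10), in normalized counts per kb (mean ± SD). In control libraries the order was Dag1 (419 ± 37.9), Sgca (281 ± 54.4), Dmd, Utrn, Sgcb (263 ± 10.1), Sgcd (93.8 ± 11.4), Dysf (66.6 ± 13.0) and Dtna (66.0 ± 11.6). Dmd and Utrn thus stood level with the sarcoglycans Sgca and Sgcb in control libraries, where these 4 genes did not differ beyond their SD, and below both in knockout libraries. In knockout libraries Dag1 and Sgca, and Sgca and Sgcb, did not differ beyond their SD. Nor did Dysf, Utrn, Dmd and Dtna there, each from the next, or Dysf and Dtna in control libraries. The order within these pairs is therefore not settled. The order changes with the length used. Per kb of all annotated exons, Dmd had 55.1 ± 9.065 in knockout libraries and 173 ± 35.1 in control libraries (SD). Utrn had 76.5 ± 9.24 in knockout libraries and 193 ± 16.1 in control libraries (SD). The mean of Utrn thus stood above that of Dmd in both groups, but in control libraries not beyond their SD.

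Over the 10 libraries, Dmd and Utrn had profiles closer to each other than to the other 6 genes, with a root mean square difference of 0.28 between their log2 levels, each set to its control mean. Utrn and Sgcd stood at 0.42, and Dmd and Dysf were farthest apart at 2.01. Sgca was closer still to Dtna (0.22) and to Sgcb (0.26). Other tested genes lay nearer still. Ktn1 (0.095) and Bod1l (0.11) were nearest to Dmd, Golgb1 (0.079) and Gcc2 (0.086) to Utrn, Gmps (0.067) and Birc2 (0.070) to Sgcd, and Ccdc127 (0.046) and Pdpk1 (0.049) to Sgcb. Tmem38a (0.060) and Mgst3 (0.085) were nearest to Sgca, and Orc5 (0.092) and Diablo (0.096) to Dtna. Dysf had no such close match, since its nearest genes, Hr and Hspg2, stood at 0.22 and 0.23. Both also had their highest level in knockout M1, 521 and 13407 normalized counts. These are descriptions over 10 libraries that all share the group difference.

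By labelled sex, the fall of Dmd, Utrn and Sgcd passed in both sexes, that of Sgcd in libraries labelled male not without control M1 (-0.65, adjusted p = 0.0797). Sgcb passed in neither, with -0.33 in libraries labelled female (adjusted p = 0.0576) and -0.30 in those labelled male (adjusted p = 0.0874). The log2 fold changes in libraries labelled female and male were -1.87 and -1.47 for Dmd, -1.44 and -1.28 for Utrn, and -0.997 and -0.69 for Sgcd. Dysf rose by 0.97 in libraries labelled male (adjusted p = 0.0295) and had 0.79 in those labelled female (adjusted p = 0.0674). The call in libraries labelled male was lost without control M1 (adjusted p = 0.153), control M2 (adjusted p = 0.137), knockout M1 (adjusted p = 0.0552) or knockout M2 (adjusted p = 0.0549). Of all tested genes 28.2% passed in libraries labelled female and 26.1% in those labelled male. Both sexes were fitted together, so libraries of each sex also set the spread used for the other. Since the control labels are in doubt, the libraries were also grouped by Y-linked reads, with the single such read in knockout F3 counted as none. By these reads, each labelled sex set knockouts against controls of the opposite pattern. Dmd, Utrn and Sgcd again passed in both groups. With and without Y-linked reads they had -1.76 and -1.59 (Dmd), -1.31 and -1.405 (Utrn), and -0.91 and -0.77 (Sgcd). For Dmd and Sgcd, which group fell more thus depended on the grouping. Dysf then had a log2 fold change of 1.44 ± 0.30 in libraries with Y-linked reads (SE; edgeR, adjusted p = 0.00383) and 0.31 ± 0.29 in those without (adjusted p = 0.472), and Sgca had -0.49 ± 0.15 with them (adjusted p = 0.0252) and 0.21 ± 0.15 without (adjusted p = 0.345). In these groupings 29.1% and 24.4% of tested genes passed. The test of the difference itself passed for none of the 8 genes in either grouping, with adjusted p = 0.599 for Dysf and 0.456 for Sgca by Y-linked reads. It passed for 27 genes (0.205%) by labelled sex and 8 genes (0.0606%) by Y-linked reads in all, and for Dysf and Sgca it had an unadjusted p of 0.0175 and 0.00585.

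The other subunits of the complex did not move one way. Of 10 tested, 3 were higher, 3 lower and 4 did not pass, with a median log2 fold change of -0.06. Over all 13191 tested genes 20.8% were higher and 21.8% lower, the shares to set beside the counts of this list and of those that follow. The lists too were chosen with earlier results of these data known. Sntb1, beta-1-syntrophin, an adaptor that binds dystrophin, rose to 78.2 ± 8.58 normalized counts in knockout libraries, against 18.8 ± 5.32 in control libraries (SD), a log2 fold change of 2.05 ± 0.20 (SE; edgeR, adjusted p = 4.60e-06). Sntb2, beta-2-syntrophin, rose by 0.38 on the log2 scale. Dtnb, beta-dystrobrevin, fell to 70.3 ± 3.62 in knockout libraries, against 110 ± 13.8 in control libraries (SD), a log2 fold change of -0.67. The rule for named genes left out Sgce, epsilon-sarcoglycan, which rose by 0.42, and Nos1, the neuronal nitric oxide synthase that syntrophin anchors, which fell to 4.63 ± 3.80 in knockout libraries, against 17.2 ± 8.65 in control libraries (SD; adjusted p = 0.00645). Along with the further genes outside that rule in the lists that follow, they are named as chosen after their values were seen. Sgcz, zeta-sarcoglycan, was listed at 0 in all libraries. Sntb1, Dtnb and above all Nos1 rest on fewer reads than the 8 genes.

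The enzymes that build the sugar chains of dystroglycan were mostly without a call. Of 15 tested, 2 were higher, 2 lower and 11 did not pass, with a median log2 fold change of 0.02. Gmppb, which makes GDP-mannose, rose by 0.67 on the log2 scale. Pomgnt1, which extends the O-mannose core, rose by 0.35, and did not pass without control F1 and knockout M3 (adjusted p = 0.0619). B3gnt1 had -0.25 (adjusted p = 0.0368) and lost its call when any of 8 of the 10 libraries was left out.

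Of 9 tested matrix ligands of dystroglycan and their partner chains, 4 were higher, 1 lower and 4 did not pass, with a median log2 fold change of 0.13. Bgn, the proteoglycan biglycan, rose to 6361 ± 1937 normalized counts in knockout libraries, against 2443 ± 225 in control libraries (SD), a log2 fold change of 1.36 ± 0.18 (SE; edgeR, adjusted p = 6.60e-05). Hspg2, perlecan, rose by 0.98 and Lamc1, the laminin gamma-1 chain, by 0.37 on the log2 scale. Outside the rule, Agrn, agrin, rose by 0.47. Lama2, the laminin alpha-2 chain of the muscle basement membrane, had 2521 ± 214 in knockout libraries and 3282 ± 538 in control libraries (SD), a log2 fold change of -0.41 (adjusted p = 0.0101). That fall did not pass without control F1 (-0.29, adjusted p = 0.0635), and was 0.0039 with the length and GC offsets.

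The integrin and vinculin complex is the other link between matrix and actin in muscle. Of 12 tested genes 8 were higher, 2 lower and 2 did not pass, with a median log2 fold change of 0.37. Itga7, the muscle laminin receptor integrin alpha-7, rose to 1956 ± 190 normalized counts in knockout libraries, against 1318 ± 43.3 in control libraries (SD), a log2 fold change of 0.55 ± 0.09 (SE; edgeR, adjusted p = 0.000267). Tln1, talin 1, which couples integrins to actin, rose by 0.52, Ilk, integrin-linked kinase, by 0.47, and Vcl, vinculin, by 0.41 on the log2 scale. The lower genes, both outside the rule, were Itga6, the integrin alpha-6 laminin receptor (-0.47), and Fermt2, the integrin activator kindlin-2 (-0.26, adjusted p = 0.0441). Only 1 gene of this list was lower in 9 of the 10 fits that left out a library.

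Of 14 tested genes of costameres, the sites where the complex anchors to the Z-disc, and of their cytoskeletal linkers, 4 were higher, 3 lower and 7 did not pass (median log2 fold change 0.30). Dst, dystonin, a giant linker of the plakin family, fell to 5392 ± 779 normalized counts in knockout libraries, against 14373 ± 1379 in control libraries (SD), a log2 fold change of -1.44 ± 0.12 (SE; edgeR, adjusted p = 1.74e-06). Ank2, ankyrin-B, which helps to place dystrophin at the membrane, fell by 0.81 on the log2 scale, and had -0.20 with the length and GC offsets (adjusted p = 0.0600). Des, the intermediate filament desmin, rose by 0.92 and Actb, a cytoplasmic actin, by 1.05. The other cytoplasmic actin of the list, Actg1, which the rule left out, did not pass (edgeR, adjusted p = 0.135). Outside the rule, Flnc, filamin C, an actin crosslinker that binds sarcoglycans, rose by 0.70 and the keratin gene Krt8 by 0.94, and Pgm5, aciculin, a partner of dystrophin, fell by 0.37 on the log2 scale.

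Among partners of dysferlin in membrane repair, 16 of 27 tested genes were higher, 3 lower and 8 did not pass, with a median log2 fold change of 0.37. Anxa2, annexin 2, which gathers at membrane wounds, rose to 2772 ± 409 normalized counts in knockout libraries, against 1031 ± 213 in control libraries (SD), a log2 fold change of 1.40 ± 0.14 (SE; edgeR, adjusted p = 7.10e-06). Its partner S100a10 rose by 1.17 and Anxa5, annexin 5, by 1.14. Cav3, the muscle caveolin, rose to 685 ± 91.2 in knockout libraries, against 383 ± 24.1 in control libraries (SD), a log2 fold change of 0.81 ± 0.11 (SE; adjusted p = 4.53e-05). Outside the rule, the lower genes were Syt7, a calcium sensor of lysosome fusion (-1.06), Snap23, a membrane fusion protein (-0.44), and Ahnak, a scaffold that binds dysferlin (-0.38). Myof, myoferlin, a ferlin like dysferlin, rose by 0.79, and Trim72, the muscle repair protein MG53, had 1578 ± 222 in knockout libraries and 1535 ± 134 in control libraries (SD; adjusted p = 0.926).

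**Figure D3:**
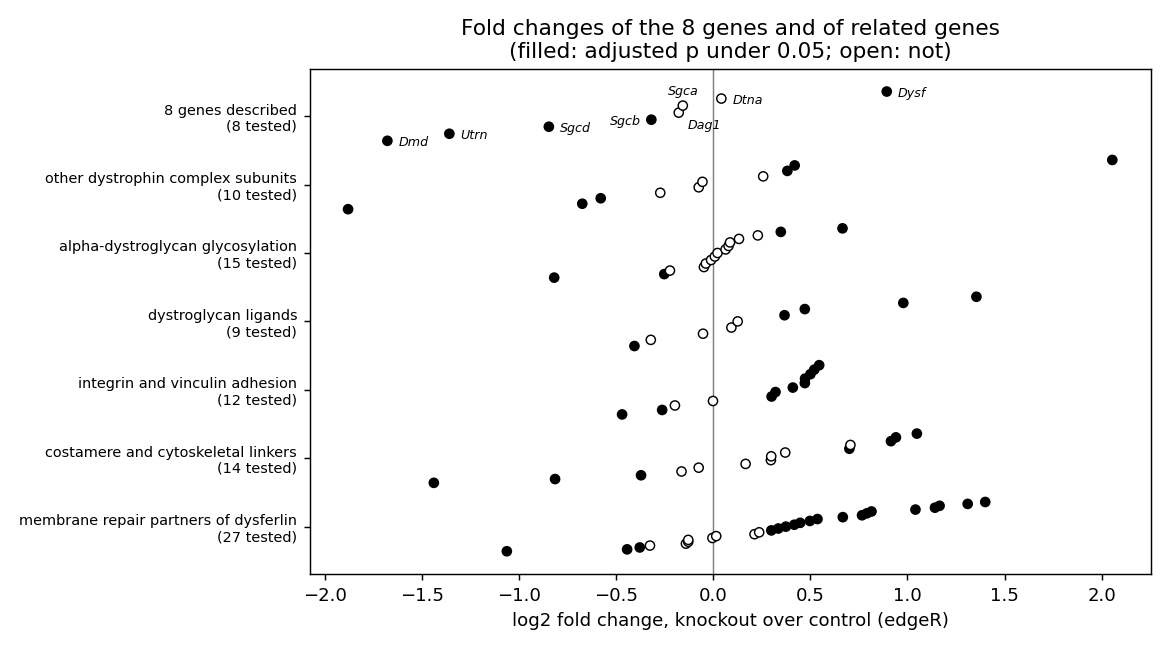
Log2 fold change, knockout over control, of the 8 genes (top row) and of the tested genes of 6 related lists (1 point a gene; filled points passed an adjusted p of 0.05). Dmd, Utrn and Sgcd lie at the left and Dysf at the right of the top row, and 16 of 27 membrane repair partners and 8 of 12 integrin and vinculin genes are filled points at the right.

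The tissue was checked against cell type markers, because in bulk tissue fewer cells of a type and less RNA per cell cannot be told apart. Cardiomyocyte markers were abundant in all libraries, with summed levels of 378431 to 527206 normalized counts in knockout libraries and 682414 to 872048 in control libraries, and 3 of 8 were higher and 3 lower. Most of the lower sum was the titin gene Ttn, with 135951 ± 30313 in knockout libraries and 448113 ± 62205 in control libraries (SD), while Tnnt2, Actc1 and Actn2 rose. Ryr2 fell more steeply, with 7639 ± 1694 in knockout libraries and 34855 ± 3468 in control libraries (SD). Myh6 was also lower, with 138013 ± 19791 in knockout libraries and 175000 ± 8133 in control libraries (SD). It lost its call when any of 7 of the 10 libraries was left out. Summed fibroblast markers stood at 34861 to 49400 in knockout libraries and 18239 to 20232 in control libraries (5 of 7 higher, 1 lower), and macrophage markers at 7287 to 10913 in knockout libraries and 3072 to 4295 in control libraries (7 of 7 higher). For smooth muscle and pericyte markers 5 of 7 were higher and for dividing cells 5 of 5, while endothelial markers split, 2 of 6 higher and 2 lower. Among all tested genes 20.8% were higher and 21.8% lower. Ventricular markers summed to 5183 to 9351 in knockout libraries and 831 to 1522 in control libraries (2 of 4 tested higher), with the ventricular factor Irx4 at 0 in all libraries. Nearly all of that sum was Myl3, with 6945 ± 1443 in knockout libraries and 1039 ± 312 in control libraries (SD). Myl2, the other that passed, had 87.6 ± 49.1 in knockout libraries and 3.25 ± 2.28 in control libraries (SD). Of 3 Schwann cell markers tested 1 was higher and 2 lower, and skeletal muscle markers summed to 48.6 to 66.4 in knockout libraries and 61.5 to 187 in control libraries, with Myh1, Myh2 and Myh4 under the filter. Dysferlin is also known from human monocytes, and the library with its highest level, knockout M1, had a macrophage sum of 8088, while M2 had the highest, 10913. Whether these shifts had a part in the changes of the 8 genes was not tested.

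**Figure D4:**
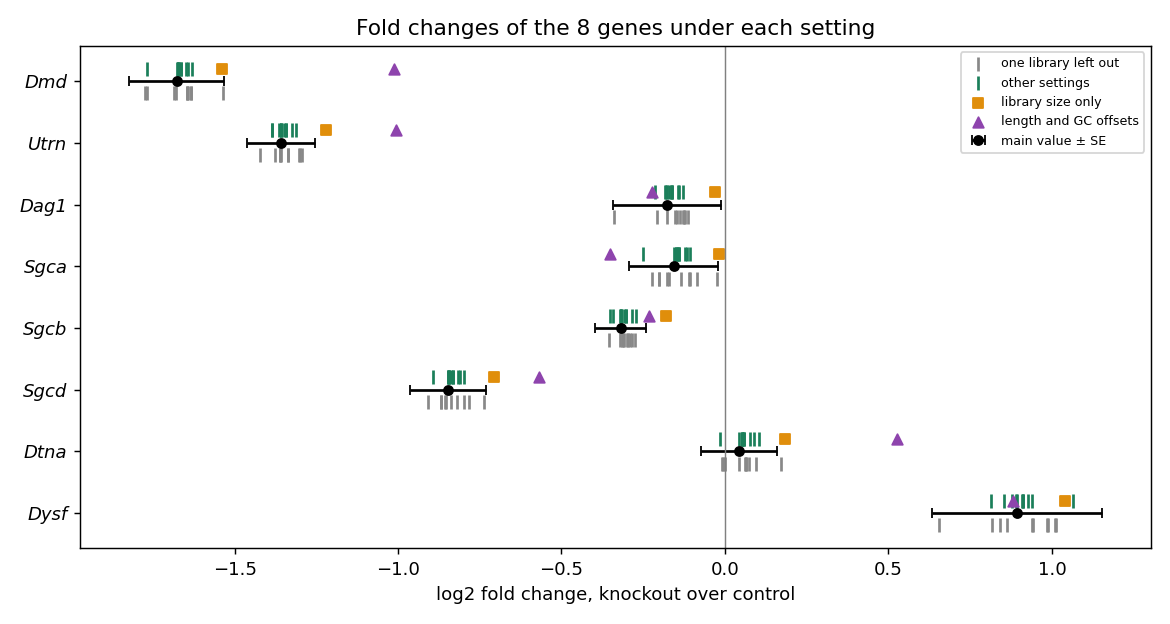
Log2 fold change, knockout over control, of each of the 8 genes in the main fit (black, ± SE) and under other settings: one library left out (grey), other tests, filters and covariates (green), scaling by library size only (orange) and offsets for exon length and GC content (purple). Dmd, Utrn and Sgcd stay below 0 and Dysf above 0 in all settings, while the offsets move Dmd to -1.01 and Dtna to 0.53.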

How the data were processed

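Left atrial RNA of 6 libraries labelled Tbx5 knockout and 4 labelled control was read from one end over 51 bp, per the labels' protocols. The labels name both an mRNA kit and ribosomal depletion of total RNA, so which was used is unclear. Tools in the submitters' processing notes are FastQC, TopHat2 2.0.11, featureCounts and DESeq2, with genome build mm10. The sources used here do not give the annotation or strand setting of the counting. Per the file headers, the deposited table holds raw counts per gene and library. The authors also deposited normalized counts as a signal, which equal the raw count divided by one size factor per library, as checked on the values. Log2 fold changes, their standard errors (a score), linear fold values and p-values in the deposited table are the authors' comparison and served as a check only: the authors' deposited table gives log2 fold changes of -1.61 for Dmd, -1.32 for Utrn and 0.86 for Dysf.

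Raw counts were tested with edgeR 4.0.16 in R 4.3.3 (TMM scaling, filterByExpr by group, quasi-likelihood F-test, Benjamini-Hochberg adjustment at 0.05 over 13191 genes), on all 10 libraries without covariates. A standard error is the absolute log2 fold change over the square root of F. Effects by labelled sex, or by Y-linked reads, came from a joint fit of all 10 libraries. It had a group for each combination with genotype. Within groups, chi-square per degree of freedom between libraries was 4.34 or more, so none agreed within counting error. Fits were tested on simulated data. Alternatives were RLE, upper-quartile and library size scaling, DESeq2 1.42.0, limma-voom (limma 3.58.1), a robust fit, the filter left out or set to 50 counts in 4 libraries, labelled sex or replicate number as covariate, lowess offsets for exon length and GC content (span 0.3, for the 11973 genes, 90.8%, with GENCODE values), and each library left out in turn. Those added after the data were seen used Y-linked reads in place of sex, or left out control F1 and knockout M3.

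The 8 genes, the 6 lists of related genes and the 9 marker lists were chosen with earlier results of these data known. Named genes are the 8, the 4 of each related list with the smallest adjusted p, and the 2 genes nearest to each of the 8 by the root mean square difference of log2(normalized count + 1) set to the control mean. Some genes that the rule names in the related lists are not reported here. Positions are from GENCODE on GRCm38, the assembly called mm10. Promoter windows are from RefSeq (GRCm38.p6), matched by symbol for 7 genes, and their motifs were chosen after the sequences were seen.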

Additional observations from a re-analysis of the deposited data

Results flagged for a closer look

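For each of the 8 genes, the highest and lowest library of each group was set against the others of its group with Dixon's test. By chance about 1 in 20 groups would stand out in this way. The Dmd level of 1721 normalized counts in knockout M3 stood above the other 5 knockouts, which ran from 1132 to 1348, yet below all controls. The Dag1 level of 3388 in knockout M1 stood above the other knockouts, 1715 to 2005, and above all controls. The Dtna level of 509.4 in knockout M3 stood above the other knockouts, 406 to 435. Knockout M3 was also the library with both Y-linked and 153 Xist reads.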

How the results depend on the processing

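Dmd, Utrn, Sgcd and Dysf kept their direction and stayed past the threshold under all alternatives run on the comparison of all libraries. Log2 fold changes with one library left out ran from -1.77 to -1.54 for Dmd, -1.42 to -1.29 for Utrn, -0.91 to -0.74 for Sgcd, -0.35 to -0.27 for Sgcb and 0.65 to 1.01 for Dysf. They ran from -0.34 to -0.11 for Dag1, which passed without knockout M1, and from -0.0095 to 0.17 for Dtna, below 0 without control M2 or knockout M3. The length and GC offsets brought past the threshold Sgca (-0.35) and Dtna (0.53), and moved Lama2 to 0.0039. Of the 8 genes 2 were then higher and 5 lower in knockout libraries. Of all 11973 genes tested with these offsets, 2682 were higher and 2400 lower. The offsets take out any trend with length or GC, and a real group difference that follows length would be taken out too. Scaling by library size alone lost Sgcb (-0.18), gave 9 lower genes over the 6 related lists in place of 14, and split all genes into 3942 higher and 2020 lower in knockout libraries, against 2741 higher and 2881 lower. Why these values moved was not tested.

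Replicate numbers as labelled gave little sign of pairing: deviations from the group means of same-numbered libraries correlated at -0.022, 0.199, -0.149 and -0.053 over 11981 genes. Controls M1, M2, F1 and F2 correlated best with knockouts F1, M2, M3 and M1. Since the control sex labels are in doubt, this check cannot exclude a pairing under other labels. With the replicate number as a block, Dtna was -0.014, Pecam1 -0.0031, Orc5 -0.011 and Diablo -0.035. The count of all genes called was then 2599 higher and 2812 lower. Replicate numbers F3 and M3 occur only among knockouts, so those libraries do not bear on the fold changes of the block fit.

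Within labelled sex the values were less stable, and the sex labels of the controls are in doubt. In libraries labelled female, leaving one library out gave -0.35 to -0.28 for Sgcb and 0.73 to 0.92 for Dysf. Each passed the threshold without knockout M1 or M3. Those knockouts are labelled male and bear on this test only through the joint fit, in which all libraries set the spread. Dysf in libraries labelled female also passed with library size scaling (0.94) and with no filter (0.83). In libraries labelled male the ranges were -0.45 to 0.086 for Dag1, -0.12 to 0.060 for Sgca, -0.38 to -0.22 for Sgcb, -0.82 to -0.54 for Sgcd and 0.59 to 1.26 for Dysf. Sgcb there passed without knockout M3 and Dag1 without knockout M1, while Sgcd lost its call without control M1 and Dysf without control M1 or M2 or knockout M1 or M2. There library size scaling gave 0.053 for Dag1, 0.10 for Sgca and 0.41 for Dtna, and no filter gave 0.0082 for Sgca. Grouped by Y-linked reads in place of the labels, Sgca was 0.21 without and -0.49 with such reads, and Dtna 0.23 without and -0.12 with them. The number of genes whose effect differed between labelled sexes, 27, was 114 with no filter, 8 by Y-linked reads and 7 to 77 with one library left out. The difference, female minus male, ran from -0.36 to 0.18 for Dag1, -0.089 to 0.049 for Sgcb and -0.47 to 0.21 for Dysf with one library left out, and was 0.0041 for Sgcb with library size scaling. The Utrn to Dmd log2 difference ran from 0.23 to 0.39 (exact p from 0.0119 to 0.0714) and missed 0.05 without control F1.

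At these depths a gene with few reads, such as Dtnb, has a larger counting error than Dmd or Dag1. Counts per gene do not separate isoforms or start sites.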
